A study of Mus musculus with 10 samples.

Results

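Vitamin A metabolism was examined in regenerating liver through 9 genes: Bco1, Bco2, Rbp4, Lrat, Dhrs3, Aldh1a1, Cyp26a1, Retsat and Scarb1. They were taken by symbol from a count table of 23056 genes, and all 9 were in the table and passed the filter on low counts. They were chosen by symbol with the CPM values, fold changes and p-values of the genotype contrast already known, so those measures are given here as a description and support nothing by themselves. Poly(A) RNA was sequenced from mouse liver tissue as 6 wild-type (WT) libraries and 4 libraries labelled IFRD1-KO, from knockouts (KO) of Ifrd1, whose product is a transcriptional co-regulator. The protocol for both groups was partial hepatectomy, with the median and left lateral lobes taken out, and all samples were labelled as 12 hours after surgery. Which cells lack Ifrd1 is not stated in the labels, nor are strain, sex or age. No unoperated liver was analysed here, so every difference is one between operated animals of either genotype. The labels number the libraries and do not say that each came from its own mouse, so n counts libraries and the error behind each p-value is that between libraries, which may be technical.

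The liver is the main store of vitamin A. Dietary beta-carotene is cut into retinal by the enzyme BCO1, retinal and retinol are converted into each other, and retinol is either esterified for storage, mostly in stellate cells, or carried in blood by the retinol-binding protein that hepatocytes secrete. Oxidation of retinal gives retinoic acid, which acts through nuclear receptors (RAR and RXR) and is removed by CYP26 hydroxylases, so that a few enzymes set how much of the active form a cell holds.

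Bco1 and Cyp26a1 carry, just before their transcription start, a paired nuclear receptor half-site that a search of the promoter letters found, and these stretches are shown because they lie at the gene with the smallest p of the contrast (Bco1) and at a textbook retinoic acid target (Cyp26a1). Each is given 5′ to 3′ on the strand of the gene, with the matched letters in capitals, from RefSeq on GRCm38.p6. The Bco1 stretch is chr8:117095615-117095864 (plus strand) and the Cyp26a1 stretch chr19:37697558-37697807 (plus strand).
Bco1: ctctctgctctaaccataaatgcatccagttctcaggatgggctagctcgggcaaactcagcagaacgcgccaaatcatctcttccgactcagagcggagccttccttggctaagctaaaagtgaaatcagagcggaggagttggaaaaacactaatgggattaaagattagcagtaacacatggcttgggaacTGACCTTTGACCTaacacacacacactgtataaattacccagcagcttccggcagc
Cyp26a1: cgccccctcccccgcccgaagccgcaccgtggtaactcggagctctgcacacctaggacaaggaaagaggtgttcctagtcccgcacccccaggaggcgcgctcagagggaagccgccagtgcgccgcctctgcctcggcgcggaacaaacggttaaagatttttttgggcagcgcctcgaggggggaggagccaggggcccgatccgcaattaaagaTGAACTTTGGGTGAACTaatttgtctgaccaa
The motifs searched on both strands were AGNTCANAGNTCA (a direct repeat with a spacing of 1, known as DR1, the arrangement bound by PPAR with RXR and by HNF4A), AGNTCANNAGNTCA (spacing of 2, DR2) and AGNTCANNNNNAGNTCA (spacing of 5, DR5, the classical arrangement for RAR with RXR). The Bco1 match is a DR1 on the reverse strand, TGACCTTTGACCT, from 56 to 44 bases before the start (chromosome 8, 117095809 to 117095821). The Cyp26a1 match is a DR5 on the reverse strand, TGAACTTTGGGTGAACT, from 32 to 16 bases before the start (chromosome 19, 37697776 to 37697792). Both distances are to the RefSeq starts. The GENCODE starts, 117095854 for Bco1 and 37697798 for Cyp26a1, differ from these and lie inside the printed stretches. Neither match overlaps another. Among 32851 promoter windows of 250 bases, 0.183% held the DR1, 0.0852% the DR2 and 0.198% the DR5. The motifs were chosen after the promoters of these genes had been read. The shares therefore cannot say how unusual the matches are, and they are given as a description. The promoter table held 13 windows for 8 of the 9 genes, all but Scarb1, and the other 11 windows held none of these letters. A match describes letters and not binding, which was not measured.

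The genes lie on 7 chromosomes, none of them chromosome 12, which carries Ifrd1. Bco1 is on chromosome 8 (117095854 to 117133720, plus strand, ENSMUSG00000031845.15). Rbp4 (38116629 to 38125281, minus strand) and Cyp26a1 (37697798 to 37701536, plus strand) are near each other on chromosome 19, which also carries Aldh1a1. Exons of Bco2 share 161 bases with the antisense gene Gm47077, and exons of Retsat share 650 bases with Gm45053 on the opposite strand. The strand setting of the counting is not given in the sources used here, so reads in those bases could have come from either gene. The table gave Gm47077 52 counts and Gm45053 517 counts over all libraries, against 930 for Bco2 and 34588 for Retsat. Exons of Ifrd1 likewise share 321 bases with the antisense gene Gm7008, which had 27 counts against 5918 for Ifrd1.

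Library totals ran from 12307446 to 14340623 counts in WT and from 12675838 to 17098012 in KO. As a check of the labels, Ifrd1 lay between 40.2 and 81.7 CPM in WT and between 13.0 and 22.6 CPM in KO. CPM is a count per 1000000 counts of the library, with library sizes adjusted by TMM (trimmed mean of M-values). The log2 change of Ifrd1 was -1.59 with an SE of 0.23 (edgeR adjusted p = 0.0258). With single libraries left out it ran from -1.68 to -1.44, with an edgeR adjusted p of 0.00104 to 0.132. The albumin gene Alb, which defines hepatocytes, lay between 19180 and 59959 CPM over all libraries, and no marker of the 5 cell type lists described further on was at 0 in any library. WT replicate 4 stood closer to KO than to the rest of WT (group means of log2 CPM) for 69.7% of all tested genes and for 6 of the 9 members: Bco2, Rbp4, Dhrs3, Aldh1a1, Cyp26a1 and Scarb1. Calls that were gained without it are given both ways below. Of all tested genes, edgeR called 1.33% with WT replicate 4 and 21.4% without it. A call gained that way is therefore no support for a single gene. With 1 surrogate variable in the model, a term estimated from the counts that takes up variation shared by many genes, no gene of the table was called.

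Of the 9 genes, Bco1 fell in KO livers, while the retinol saturase gene Retsat was about 2-fold higher without passing the test, and the other 7 did not pass either. By the quasi-likelihood test of edgeR over 13688 genes, 1 of the 9 was called (adjusted p under 0.05 by Benjamini-Hochberg), where 1.33% of all tested genes were called (0.767% lower and 0.563% higher in KO). Since the list was chosen with this contrast known, nothing is read from that count. The number of genes called moved with single libraries, from 0 without KO replicate 1, 2 or 3 to 2893 without WT replicate 4. Of the fold changes, 5 were above 0 and 4 below, with a median log2 fold change of 0.30, against -0.02 over all tested genes. The median size of the change, regardless of sign, was 1.01 in the 9 genes and 0.32 over all tested genes. The ranges of WT and KO did not overlap for 2 of the 9, Bco1 and Retsat, and for 6.9% of all tested genes (3.29% with KO lower and 3.61% with KO higher).

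**Figure D1:**
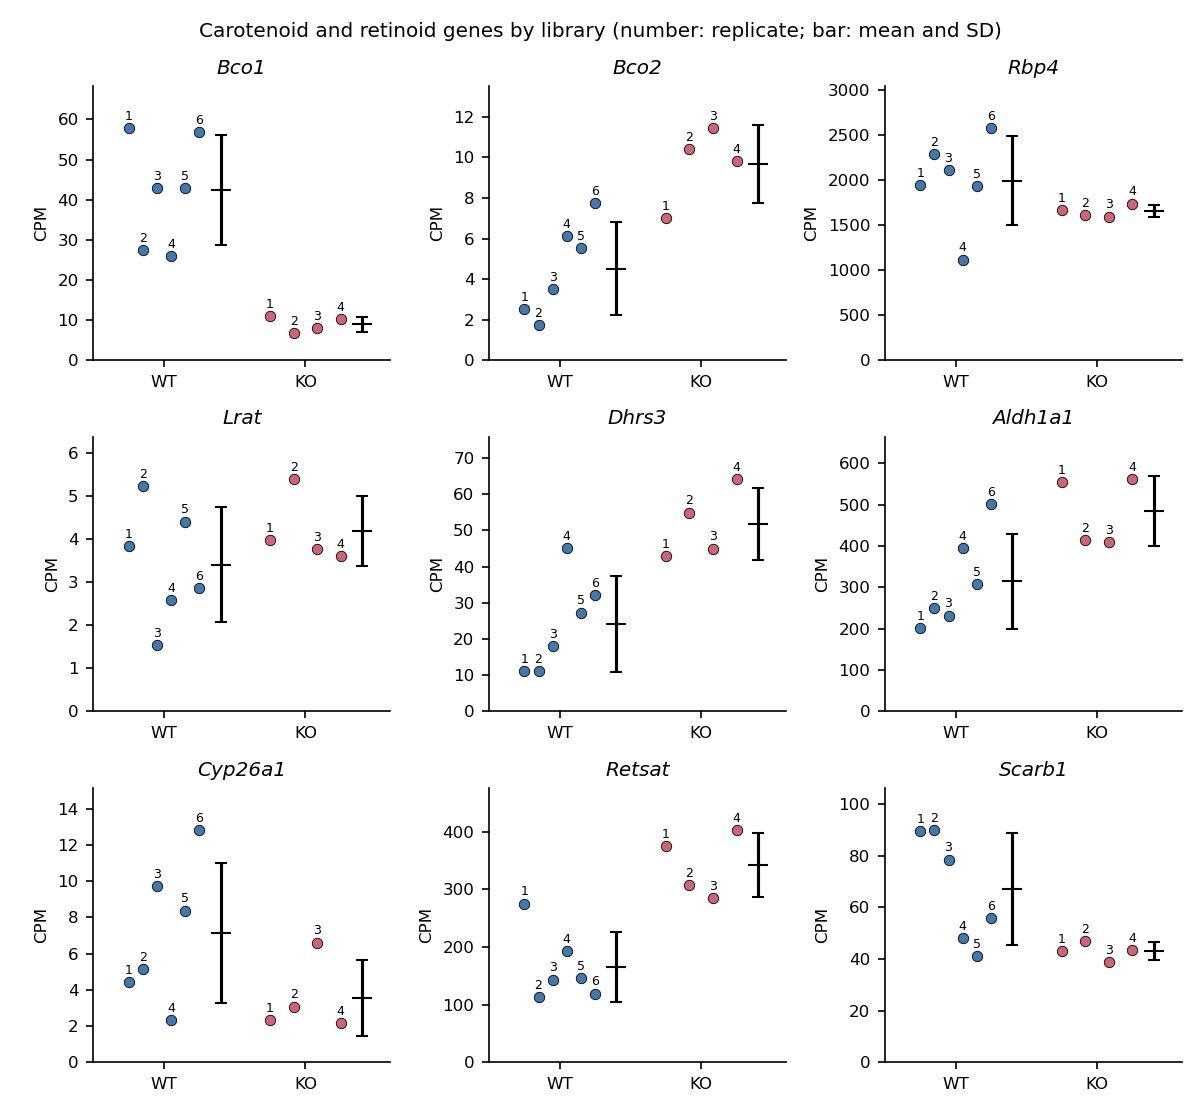
Level of each gene in CPM (y axis, from 0) in the 6 WT (blue) and 4 KO (red) libraries, with the replicate number above each point and the mean with SD as a bar beside each group. Bco1 is below 11 CPM in all 4 KO libraries and above 25 CPM in all 6 WT libraries, and Retsat is the only other gene whose groups do not overlap.

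Bco1 encodes the cytosolic dioxygenase that splits beta-carotene at its centre into retinal. Its level was 57.9, 27.5, 43.0, 26.0, 42.8 and 56.9 CPM in WT replicates 1 to 6, and 11.0, 6.86, 8.07 and 10.2 CPM in KO replicates 1 to 4. Every WT library lay above every KO library, including WT replicate 4, which at 26.0 CPM was the lowest of its group. The mean was 42.3 ± 13.7 CPM (SD, n = 6) in WT and 9.03 ± 1.90 CPM (SD, n = 4) in KO, 4.69-fold lower in KO. This was a log2 change of -2.23 (SE 0.27, edgeR adjusted p = 0.0221), and its unadjusted p ranked 1 among 13688 genes. That rank is what made Bco1 head this list, so it is given as a description. The counts behind it were 89 to 876 per library. WT replicate 4 lay at 4.71 on the log2 CPM scale, between the mean of the other WT libraries (5.47) and that of KO (3.17), and nearer to the WT mean. Its log2 change ranged from -2.33 to -2.12 when each library was left out in turn. The call was lost without any 1 KO library, with an adjusted p of 0.0578 without KO replicate 1, 0.105 without KO replicate 2, 0.102 without KO replicate 3 and 0.0606 without KO replicate 4, all by edgeR. It was kept without each WT library, with an edgeR adjusted p of 1.46e-04 without WT replicate 4 and of 0.00911 to 0.0441 without each of the others. These losses ran alongside the calls over the whole table: the share of tested genes called was 0% without KO replicate 1, 2 or 3, 0.0144% without KO replicate 4, 0.0148% without WT replicate 1 or 5, 0.405% without WT replicate 2, 0.0734% without WT replicate 3, 21.4% without WT replicate 4 and 0.147% without WT replicate 6. With WT replicates 5 and 6 both left out it was 0.0299%, and Bco1 was not among those called (edgeR adjusted p = 0.0504).

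Bco2 encodes the mitochondrial dioxygenase that cuts carotenoids off centre, the sister enzyme of BCO1. It lay between 1.74 and 7.73 CPM in WT (median 4.52) and at 7.01, 10.4, 11.4 and 9.83 CPM in KO replicates 1 to 4. The groups overlapped, since KO replicate 1 was below WT replicate 6. The mean was 4.52 ± 2.31 CPM in WT against 9.67 ± 1.90 CPM in KO, a log2 change of 1.09 (SE 0.35, edgeR adjusted p = 0.0952). Without WT replicate 4 it was 1.21 (adjusted p = 0.0334). With 1 surrogate variable it was 0.34 (SE 0.48, not called). Counts were low, 23 to 158 per library.

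Per kilobase of exon, Bco1 stood above Bco2 in every WT library and close to it in KO. The ratio of Bco1 to Bco2 per kilobase was 19.2, 13.2, 10.2, 3.54, 6.45 and 6.13 in WT replicates 1 to 6 and 1.31, 0.549, 0.587 and 0.865 in KO replicates 1 to 4. The ratio was above 1 in all 6 WT libraries and in KO replicate 1 alone among the KO libraries. Both genes of the ratio were chosen with the contrast known, so it is given with no test.

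Scarb1 encodes the scavenger receptor SR-BI, which takes up cholesterol esters from HDL and carotenoids. It lay between 41.1 and 90.0 CPM in WT (median 67.1) and at 43.1, 47.0, 38.7 and 43.4 CPM in KO. The KO libraries were close together and overlapped the low end of WT, where WT replicates 4 and 5 were at 48.1 and 41.1 CPM. The mean was 67.1 ± 21.5 CPM in WT against 43.1 ± 3.39 CPM in KO (a log2 change of -0.64, SE 0.23, edgeR adjusted p = 0.114). Without WT replicate 4 the log2 change was -0.72 (adjusted p = 0.0355), and with 1 surrogate variable it was -0.22 (SE 0.29, not called).

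Retsat encodes retinol saturase, an enzyme of the endoplasmic reticulum that turns retinol into 13,14-dihydroretinol. It lay between 113.5 and 275 CPM in WT (median 145) and at 375, 307, 285 and 403 CPM in KO. The highest WT library, replicate 1, was just below the lowest KO library, so the groups did not overlap. The mean was 165 ± 60.8 CPM in WT against 343 ± 55.7 CPM in KO, 2.07-fold higher, with a log2 fold change of 1.05 (SE 0.24). It missed the threshold (edgeR adjusted p = 0.0535) and passed it in 4 of 20 alternatives. It passed with no filter on low counts (adjusted p = 0.0394, where 1.01% of all genes were called) and in DESeq2 (0.00326, where 10.3% were). It also passed in limma-voom (0.0403, where 2.32% were) and in edgeR without WT replicate 4 (0.0103, where 21.4% were). With single libraries left out the edgeR adjusted p reached 0.148, and with 1 surrogate variable Retsat was not called.

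Dhrs3 encodes a retinal reductase that returns retinal to retinol and is itself induced by retinoic acid. It lay between 11.0 and 45.2 CPM in WT (median 22.7) and at 42.8, 54.9, 45.0 and 64.2 CPM in KO. The overlap came from WT replicate 4 alone, which at 45.2 CPM was above KO replicates 1 and 3, while the other WT libraries reached at most 32.2 CPM. The mean was 24.1 ± 13.4 CPM in WT against 51.7 ± 9.87 CPM in KO (a log2 change of 1.10, SE 0.36, edgeR adjusted p = 0.0986). Without WT replicate 4 it was 1.38 (adjusted p = 0.00968), and with 1 surrogate variable it was 0.20 (SE 0.38, not called).

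Aldh1a1 encodes a cytosolic retinal dehydrogenase that makes retinoic acid. It lay between 202 and 501 CPM in WT (median 278) and at 555, 414, 410 and 563 CPM in KO. Only WT replicate 6 was above the lowest KO library. The mean was 314 ± 114 CPM in WT against 485 ± 84.6 CPM in KO (a log2 change of 0.63, SE 0.25, edgeR adjusted p = 0.142). With 1 surrogate variable it was 0.26 (SE 0.35, not called). Its close relative Aldh1a7 could share reads with it, so both counts are uncertain.

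Cyp26a1 encodes the main hydroxylase that clears retinoic acid in liver, and it is a standard readout of retinoic acid signalling. It lay between 2.31 and 12.8 CPM in WT (median 6.76) and at 2.32, 3.08, 6.61 and 2.18 CPM in KO. The groups overlapped at the low end, with WT replicate 4 at 2.31 CPM, and KO replicate 3 was above WT replicates 1 and 2. The mean was 7.13 ± 3.88 CPM in WT against 3.55 ± 2.08 CPM in KO (a log2 change of -1.01, SE 0.47, edgeR adjusted p = 0.195). Leaving out single libraries moved the log2 fold change between -1.49 and -0.76 with no adjusted p under 0.05, and it was -0.62 without WT replicates 5 and 6. Its spread was wide in both groups, with an SD of 54.4% of the mean in WT and 58.7% in KO.

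Rbp4, the retinol carrier that hepatocytes release into blood, varied less between KO libraries than between WT libraries. It lay between 1119 and 2579 CPM in WT (median 2025) and at 1666, 1609, 1595 and 1740 CPM in KO. WT replicate 4 was the only WT library below the KO libraries. The mean was 1994 ± 493 CPM in WT against 1653 ± 65.9 CPM in KO (a log2 change of -0.27, SE 0.21, edgeR adjusted p = 0.438). The SD was 24.7% of the mean in WT and 3.99% in KO. The median of that share over all tested genes was higher in both groups, at 29.4% in WT and 16.9% in KO. The sign of this small change turned with 1 surrogate variable in the model (0.19).

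Lrat encodes lecithin retinol acyltransferase, which makes the retinyl esters that stellate cells store. It lay between 1.53 and 5.22 CPM in WT (median 3.35) and at 3.97, 5.39, 3.77 and 3.61 CPM in KO. All KO libraries but replicate 2 lay within the WT range. The mean was 3.40 ± 1.34 CPM in WT against 4.18 ± 0.82 CPM in KO (a log2 change of 0.30, SE 0.32, edgeR adjusted p = 0.578), from 20 to 72 counts per library. It was 0.15 without WT replicate 3, 0.46 without WT replicate 2 and 1.05 with 1 surrogate variable (SE 0.39, not called). In bulk tissue, fewer cells of a type and less RNA per cell cannot be told apart. The 17 stellate cell markers other than Lrat, such as Reln and Dcn, summed to 231 to 425 CPM in WT and 274 to 361 CPM in KO, with 0 of 17 called and a median log2 fold change of 0.05. At an unadjusted p under 0.05 there were 2 of 17 in edgeR, where 26% of all tested genes were.

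The WT libraries had the same arrangement for several of the genes. WT replicates 1, 2 and 3 had the 3 lowest levels of Bco2, Dhrs3 and Aldh1a1 and the 3 highest levels of Scarb1 within their group. For Bco1 the lowest WT libraries were replicates 2 and 4. The labels give no batch that would separate these libraries, and the arrangement was seen after the values were known. How many of all tested genes were arranged in this way was not counted. The arrangement therefore cannot be called a trait of these genes. In KO the SD was a smaller share of the mean than in WT for every gene but Cyp26a1. The median of that share over all tested genes was 29.4% in WT and 16.9% in KO.

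Compared per kilobase of exon, the level that allows different genes to be set side by side, Bco1 was the fourth most abundant of the 9 in WT and ranked 7 in KO. In WT the order was Rbp4 (1485 CPM per kilobase), Aldh1a1 (63.7), Retsat (46.7), Bco1 (16.7), Dhrs3 (8.25), Scarb1 (7.90), Cyp26a1 (3.60), Bco2 (2.14) and Lrat (0.636), as means over 6 libraries. The ranges of neighbours overlapped throughout this order except between Rbp4 and Aldh1a1 and between Retsat and Bco1. In KO the order was Rbp4 (1231), Aldh1a1 (98.3), Retsat (96.8), Dhrs3 (17.7), Scarb1 (5.07), Bco2 (4.57), Bco1 (3.55), Cyp26a1 (1.79) and Lrat (0.782), in the same unit. There the ranges of Scarb1, Bco2, Bco1 and Cyp26a1 ran into each other from one neighbour to the next, and so did those of Aldh1a1 and Retsat. Exon lengths came from GENCODE M21, which may differ from the annotation used for counting.

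**Figure D2:**
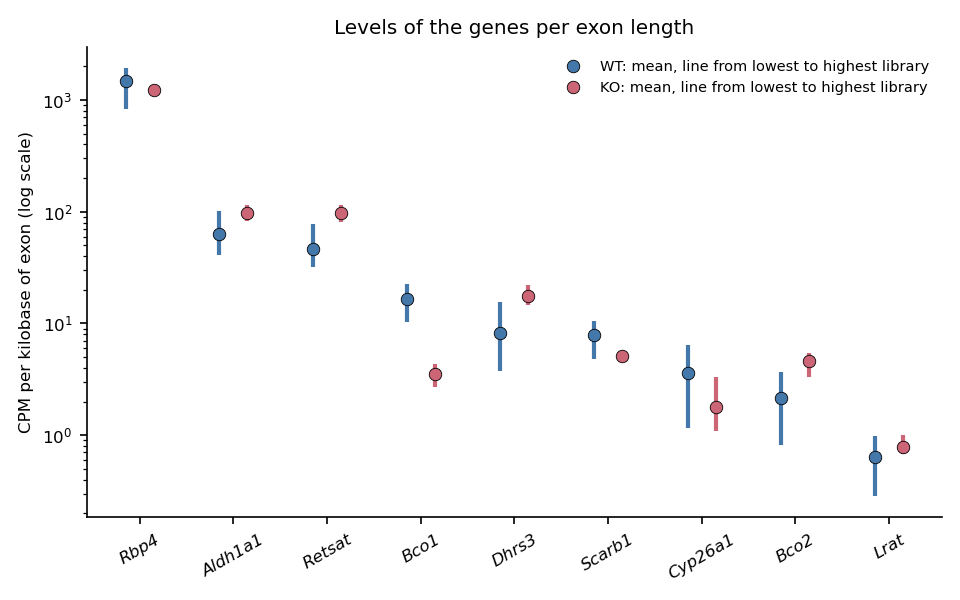
Mean level per kilobase of exon (y axis, log scale, CPM per kilobase) of each gene in WT (blue) and KO (red), with a line from the lowest to the highest library. Bco1 moves from 16.7 in WT to 3.55 in KO and from above Dhrs3 to below Bco2, while Rbp4 stays far above the others.

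The rest of the retinoid pathway was described through 54 genes listed by function, of which 49 were in the table and 41 were tested. The lists were drawn up with earlier results of these data known. The shares below are therefore a description and support nothing by themselves. None of the 41 was called in edgeR's quasi-likelihood test, in which 1.33% of all genes were. At an unadjusted p under 0.05 there were 15 (12 higher and 3 lower in KO), or 36.6%, against 26% of all tested genes. DESeq2 called 8 of 44 (18.2%), namely Rdh7, Adh4, Rdh16, Cd36 and Lipe higher and Tgm2, Pnpla2 and Dgat1 lower, where it called 10.3% of all genes. Limma-voom called 1 of 41, Adh4, against 2.32% of all genes. Without WT replicate 4, edgeR called 13 of 41 (31.7%), where 21.4% of all genes were called. These were Rdh7, Adh4, Rdh16, Rdh5, Dhrs4, Aldh8a1, Aldh1a7, Cd36, Lipe and Rxrg, higher in KO, and Tgm2, Pnpla2 and Dgat1, lower in KO. With 1 surrogate variable 0 of 41 were called, and 2 of 41 had an unadjusted p under 0.05 in edgeR, where 3.93% of all tested genes did. Of the 41 fold changes, 22 were above 0 and 19 below, with a median log2 fold change of 0.09. The ranges of WT and KO did not overlap for 3 of the 41 (2 with KO higher and 1 with KO lower). Of all tested genes, 6.9% had no overlap, so nothing is read from the 3.

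Among carriers and uptake receptors, 3 of 6 tested genes had fold changes above 0 and none passed. Ttr, which encodes transthyretin, the partner of RBP4 in plasma, was at 3932 ± 1005 CPM in WT against 3745 ± 224 CPM in KO (a log2 change of -0.07, SE 0.20). Stra6l, which encodes the liver receptor for RBP4, was at 221 ± 58.7 and 189 ± 32.6 CPM (-0.23, SE 0.21). Lrp1, a receptor for chylomicron remnants that bring dietary retinyl esters, was at 307 ± 72.2 and 372 ± 24.5 CPM (0.28, SE 0.19). These 3 carriers thus differed by less than 2 SE.

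Among 8 genes of retinyl ester formation and hydrolysis, 3 fold changes were above 0 and 5 below, and none passed with all libraries. Pnpla2, which encodes adipose triglyceride lipase, was at 120 ± 45.6 CPM in WT against 64.0 ± 8.21 CPM in KO (a log2 change of -0.91, SE 0.28, edgeR adjusted p = 0.0852). WT replicate 4 had its lowest WT level, 53.1 CPM, below the lowest KO library. Without that library the log2 change of Pnpla2 was -1.06 (edgeR adjusted p = 0.00414), and with 1 surrogate variable it was 0.085 (SE 0.24). Ces1d, a carboxylesterase with retinyl ester hydrolase activity, was at 154 ± 113 and 93.9 ± 16.3 CPM (-0.71, SE 0.48). Lipa, lysosomal acid lipase, was at 50.9 ± 8.70 and 70.2 ± 17.2 CPM (0.47, SE 0.18, edgeR adjusted p = 0.140). Dgat1, an acyltransferase that can also esterify retinol, was the only gene of this list whose groups did not overlap, at 23.1 to 76.2 CPM in WT and 20.7 to 22.6 CPM in KO (-0.96, SE 0.27, edgeR adjusted p = 0.0713), and it was picked out after its values were seen. Dgat1 was at -1.08 without WT replicate 4 (edgeR adjusted p = 0.00680) and at -0.25 with 1 surrogate variable.

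Among 13 tested oxidoreductases of retinol and retinal, 7 fold changes were above 0 and none passed with all libraries. Adh1, the most abundant by counts, was at 642 ± 202 CPM in WT against 691 ± 50.4 CPM in KO (a log2 change of 0.11, SE 0.23). Rdh7, a microsomal retinol dehydrogenase, was at 327 ± 99.5 and 535 ± 87.8 CPM (0.71, SE 0.22, edgeR adjusted p = 0.0871), and Dhrs4 at 68.0 ± 20.7 and 98.4 ± 15.6 CPM (0.53, SE 0.22, adjusted p = 0.158). Without WT replicate 4 both passed, Rdh7 at 0.88 (edgeR adjusted p = 0.00680) and Dhrs4 at 0.65 (0.0464), and with 1 surrogate variable they were at 0.16 and 0.11. Rdh7 belongs to a cluster of similar genes that could share reads. Adh4, picked out after its values were seen because its groups did not overlap, was at 6.58 to 77.2 CPM in WT and 95.8 to 157 CPM in KO (1.94, SE 0.54, edgeR adjusted p = 0.0733), and WT replicate 4 had the highest WT level. Without that library Adh4 was at 2.49 (edgeR adjusted p = 0.00400), and with 1 surrogate variable at 0.36.

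Among 5 tested retinal oxidases, 3 fold changes were above 0 and none passed with all libraries. Aldh1a7 was at 77.8 ± 32.1 CPM in WT against 139 ± 21.7 CPM in KO (a log2 change of 0.83, SE 0.28, edgeR adjusted p = 0.0986). Aldh8a1, an aldehyde dehydrogenase that accepts 9-cis retinal, was at 99.2 ± 42.9 and 170 ± 18.1 CPM (0.78, SE 0.31, adjusted p = 0.142), and its groups did not overlap, with a highest WT library of 152 CPM and a lowest KO library of 160 CPM. Without WT replicate 4 both passed, Aldh1a7 at 1.00 (edgeR adjusted p = 0.0159) and Aldh8a1 at 0.94 (0.0386), and with 1 surrogate variable they were at 0.15 and -0.13. Aox3, an aldehyde oxidase, ranged from 32.9 to 365 CPM in WT and from 73.0 to 371 CPM in KO (0.43, SE 0.65), so the spread within each group exceeded the difference. Of the 2 other CYP26 genes only Cyp26b1 was tested, at 9.53 ± 10.3 and 9.62 ± 4.21 CPM (0.02, SE 0.74).

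Of the 5 tested nuclear receptor genes that read retinoic acid, none passed with all libraries. In edgeR 2 of the 5 had an unadjusted p under 0.05, both higher in KO, where 26% of all tested genes did. Rxra, the most abundant of them by counts, was at 174 ± 25.0 CPM in WT against 191 ± 35.8 CPM in KO (a log2 change of 0.14, SE 0.17). Rara was at 16.6 ± 5.81 and 17.7 ± 3.45 CPM (0.09, SE 0.26) and Rxrb at 25.7 ± 5.98 and 21.8 ± 0.798 CPM (-0.24, SE 0.18). Rarb, itself a retinoic acid target, was too low to be tested. Of 3 tested genes of the retinoic acid response list, Tgm2, tissue transglutaminase, was at 413 ± 112 and 214 ± 45.2 CPM (-0.95, SE 0.23, edgeR adjusted p = 0.0579). It passed without WT replicate 4 (-0.99, edgeR adjusted p = 0.0128) and was at -0.78 with 1 surrogate variable. Pck1, a gluconeogenic gene with other strong regulators, was at 1441 ± 736 and 2350 ± 655 CPM (0.71, SE 0.37) and Nrip1, a nuclear receptor co-repressor, at 14.7 ± 2.48 and 11.4 ± 2.20 CPM (-0.37, SE 0.18). Neither Pck1 nor Nrip1 passed.

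**Figure D3:**
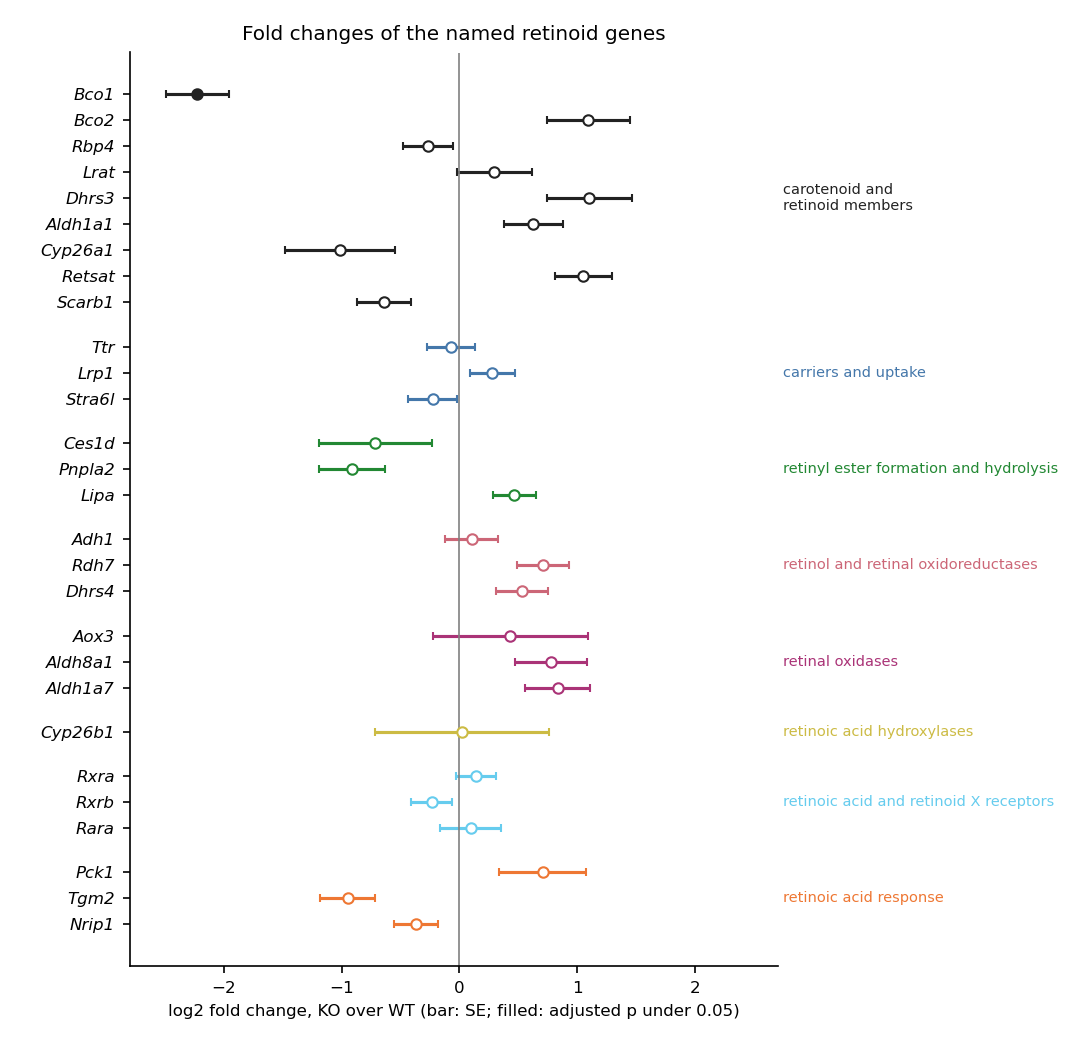
Log2 fold change of KO over WT (x axis) with its SE for the 9 genes and for the named genes of each functional list, from edgeR's fit to the whole table. Bco1, at -2.23, is the only filled point, which marks an adjusted p under 0.05, and the carriers and receptors sit near 0.

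Markers of the other liver cell types are given beside these results, since Bco1 has been described in hepatocytes and in stellate cells. The 6 Kupffer cell markers, such as Clec4f and Vsig4, summed to 34.3 to 197 CPM in WT and 28.9 to 60.0 CPM in KO. All 6 had fold changes below 0 (median -0.88) and 0 were called in edgeR's quasi-likelihood test. In that test 3 of the 6 had an unadjusted p under 0.05, where 26% of all tested genes did. Sinusoidal endothelium markers (7) summed to 85.3 to 167 and 107 to 169 CPM, and 1 of 7 was called, where 1.33% of all genes were. This was Fcgr2b, an Fc receptor gene, which was higher in KO, at 10.05 to 16.4 CPM in WT and 19.96 to 35.5 CPM in KO (log2 change 1.03, edgeR adjusted p = 0.0440). Fcgr2b missed the threshold on leaving out WT replicate 1, 3, 5 or 6 (adjusted p of 0.0791, 0.0682, 0.0866 and 0.0758) or any KO library (0.137, 0.133, 0.136 and 0.123 for KO replicates 1 to 4). Lyve1, a hyaluronan receptor gene of the same list, lay between 10.7 and 51.1 CPM in WT and between 4.85 and 6.53 CPM in KO, with no overlap (log2 change -1.77, edgeR adjusted p = 0.0642). It passed without WT replicate 2 (-1.20, adjusted p = 0.0432) and without WT replicate 4 (-1.89, 0.0163). Fcgr2b and Lyve1 were picked out after their values were seen. Clec4g, also of this list, was higher in KO without passing (log2 change 0.80, edgeR adjusted p = 0.0617). Of the 7, 3 had an unadjusted p under 0.05 in edgeR (2 higher and 1 lower in KO), where 26% of all tested genes did. Ranges did not overlap for 2 of the 7, and for 6.9% of all tested genes. Cholangiocyte markers (5) summed to 31.9 to 283 and 42.1 to 65.3 CPM. Of the hepatocyte markers 6 of 7 were found under the symbols listed and summed to 36648 to 78341 and 48123 to 58753 CPM. The other, transferrin, was listed as Tf, while the table holds it as Trf, so it is not in the sum. Trf had a log2 change of -0.65 (SE 0.28, edgeR adjusted p = 0.159). The part of these cell types in the Bco1 result was not tested.

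The genes whose pattern over the 10 libraries was most like that of Bco1 were Ankrd49, Gm43305, Tubb4b, Clptm1l and Ptprk, chosen as the highest Pearson correlations of log2 CPM among 12704 genes with a mean of at least 1 CPM. Their correlations with Bco1 were 0.986, 0.975, 0.975, 0.971 and 0.967. Over the 6 WT libraries alone they were 0.974, 0.839, 0.755, 0.756 and 0.859. The values over all libraries include the gap between the genotypes, and as the top of a ranking they are a description with no test. Gm43305 fell in KO from 277 ± 144 to 30.2 ± 12.5 CPM (log2 fold change -3.19, edgeR adjusted p = 0.0395), and it missed the threshold on leaving out WT replicate 1 (0.0723), WT replicate 5 (0.0796) or any KO library (0.110, 0.105, 0.132 and 0.123 for KO replicates 1 to 4). Tubb4b, a beta-tubulin gene, fell from 257 ± 21.7 to 158 ± 7.57 CPM (-0.70, edgeR adjusted p = 0.0440). Its call was lost without any 1 library other than WT replicate 4, with adjusted p of 0.0791, 0.0521, 0.0662, 0.0796 and 0.0726 without WT replicates 1, 2, 3, 5 and 6 and of 0.136, 0.148, 0.132 and 0.123 without KO replicates 1 to 4. Ankrd49 differed little in level, at 11.3 ± 0.668 CPM in WT against 9.39 ± 0.36 CPM in KO, although its libraries followed the order of Bco1 closely.

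**Figure D4:**
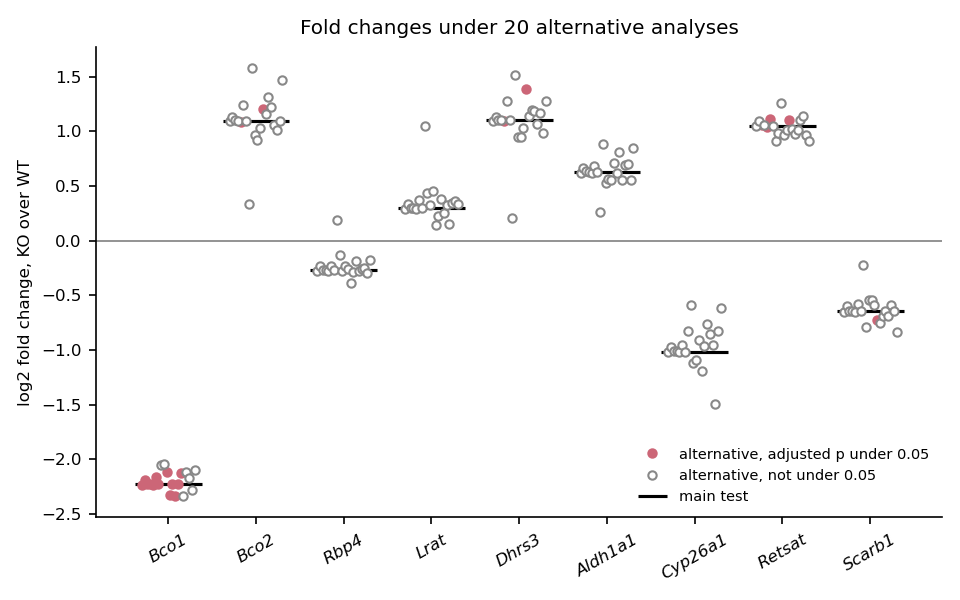
Log2 fold change of KO over WT (y axis) of each gene in 20 alternative analyses (points, red where the adjusted p was under 0.05) around the value of the main test (black line). Bco1 stays between -2.33 and -2.04 with 13 of 20 alternatives under 0.05, and Retsat between 0.91 and 1.26 with 4 of 20.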

How the data were processed

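Poly(A) RNA of mouse liver tissue (6 WT and 4 KO libraries) was analysed from 1 deposited table of unnormalized counts, with gene symbols as rows, 1 column per library and 0 columns left out. The submitters' processing notes list the tools STAR, HTSeq and DESeq2 and the build mm10. For the tools' versions and roles, the annotation and strandedness, the sources used here state nothing. Depth is given in the report as total counts.

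The members, gene lists and rule for naming genes were chosen with earlier results of these data known. Named genes were the 9 members, Ifrd1, every called gene and the 3 tested genes of highest mean CPM in each functional list of the retinoid pathway, and the 5 genes most like Bco1. Genes picked out later are marked as such. The main test was edgeR 4.0.16 (R 4.3.3), quasi-likelihood with TMM scaling, filterByExpr by group and robust dispersion, on all 10 libraries and 13688 genes holding 99.8% of counts, with Benjamini-Hochberg adjustment over all tested genes and a threshold of 0.05. The code was tested on simulated data. The SE of a log2 fold change is its size over the square root of F. Log2 CPM used a prior count of 2. No 2 libraries of a group were copies (chi-square per gene at least 20.8 over 21 pairs).

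Coordinates and exon lengths came from GENCODE M21 (GRCm38, the assembly of mm10) and promoters from RefSeq (GRCm38.p6). The motifs were chosen after the promoters had been read. Alternatives were scaling by upper quartile or RLE, filtering at 1 CPM in 4 libraries or not at all, DESeq2 1.42.0, limma-voom (limma 3.58.1), a non-robust prior, a replicate block, 1 surrogate variable (sva 3.50.0), leaving out each library and, added after the data had been seen, leaving out WT replicates 5 and 6 together.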

Additional observations from a re-analysis of the deposited data

Results flagged for a closer look

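Of 28 groups of values screened (9 genes and 5 marker sums in each genotype), 2 held a library far from the others of its group by Dixon's ratio, and chance marks about 1 in 20 such groups. The summed cholangiocyte markers of WT replicate 1 stood at 283 CPM, of which Spp1 made up 247 CPM. The summed hepatocyte markers of KO replicate 2 stood at 58753 CPM, above the other KO libraries. None of the 9 carotenoid and retinoid genes was marked in either group.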

How the results depend on the processing

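The main test called 182 genes, 1 of the 9 members and none of the 41 tested pathway genes. DESeq2 called 1624 (35.7% of them higher in KO, against 42.3% in the main test), 4 members (Bco1, Retsat, Dhrs3 and Bco2) and 8 pathway genes. Limma-voom called 318 (72.6% higher), 2 members and 1 pathway gene. No filter gave 233 genes (1.01% of those tested) and 2 members. With 1 surrogate variable 0 genes and 0 members were called, with 538 genes and 3 members at an unadjusted p under 0.05 in edgeR, and Bco1 was at -2.05 (adjusted p = 0.284). Without WT replicates 5 and 6 together 4 genes and 0 members were called (2976 genes and 6 members at an unadjusted p under 0.05 in edgeR), with Bco1 at -2.10 (adjusted p = 0.0504). Leaving out 1 library at a time gave 0 to 2893 genes, 0 to 5 members, 0 to 13 pathway genes and -2.33 to -2.12 for Bco1. The counts of 0 genes came without KO replicates 1, 2 or 3, where 2729, 2681 and 2740 genes had an unadjusted p under 0.05 in edgeR. The highest counts came without WT replicate 4. With the replicate number as a block, 1 gene and 0 members were called (2929 genes and 7 members at an unadjusted p under 0.05 in edgeR), with Bco1 at -2.04 (adjusted p = 0.0774). The labels do not say whether equal numbers pair the libraries. Same-numbered deviations correlated at 0.18, 0.07, -0.03 and -0.02, and only KO replicates 1 and 2 correlated best with their own number. With so few libraries these correlations cannot settle whether the numbers pair them. Of 740 single-gene alternatives for the other 37 named genes, 647 kept direction and side of the threshold, 41 lost and 31 gained the call, and 21 turned sign. With 1 surrogate variable the log2 fold change turned for Rbp4 (0.19), Ttr (0.35), Lrp1 (-0.070), Ces1d (1.10), Pnpla2 (0.085), Aox3 (-0.92), Aldh8a1 (-0.13), Rxrb (0.028), Rara (-0.44), Pck1 (-0.34) and Nrip1 (0.0088). It also shrank Dhrs3 to 0.20, Bco2 to 0.34, Aldh1a1 to 0.26 and Scarb1 to -0.22. Leaving out single libraries gave ranges across 0 for Ttr (-0.14 to 0.061), Aox3 (-0.0046 to 0.89), Cyp26b1 (-0.23 to 0.75) and Rara (-0.043 to 0.24), and Rara was at -0.019 without WT replicates 5 and 6. The cause of these changes was not tested. Depth limits Bco2, Lrat and Cyp26a1 most, at 20 to 166 counts per library.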
